A study of Arabidopsis thaliana with 8 samples.

Results

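The HD-ZIP IV genes encode homeodomain transcription factors of the plant epidermis, and 10 of them were followed here in Arabidopsis thaliana seedlings that overexpress WIN1. The members were taken by locus, as every non-control probe that the array design assigns to ATML1, PDF2, GL2, ANL2, HDG1, HDG2, HDG5, HDG8, HDG11 or HDG12. Each locus had 1 probe, printed as a single spot, so the set holds 10 genes of the 25665 loci named on the array. Of these genes 4 lie on chromosome 1, 2 on chromosome 3, 3 on chromosome 4 and 1 on chromosome 5.

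Proteins of this class join a homeodomain to a leucine zipper and a START lipid-binding domain, and they bind a short promoter element known as the L1 box, named after the outermost cell layer of the shoot. ATML1 and PDF2 are known to specify epidermal identity, GL2 drives trichome outgrowth in the shoot and represses root hair fate in the root, and other members act in trichome branching, in stomatal development or in the pigmentation of the tissue beneath the epidermis. WIN1, also called SHN1, is an AP2/ERF transcription factor that activates cuticle genes in the same cell layer.

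Both groups were whole seedlings of the Columbia-0 ecotype at an age of 2 weeks, raised on agar with 1% sucrose at 23 degrees Celsius under 16 h of light and 8 h of darkness. One group of 4 samples carried the construct 35S:WIN1:NOS, in which a viral promoter active in most tissues drives WIN1. The other group of 4 samples is titled vector control, while its genotype field reads wild type. Several seedlings from a shared plate were pooled for each sample, the labels do not say how many independent lines were used, and no label states that samples came from different plates. The spread behind each p-value is therefore that of these samples alone and may be technical.

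Total RNA of each sample was hybridised to its own 1-colour array, and values are log2 signals relative to the 75th percentile of the array. That percentile ran from 997 to 2490 intensity units in 35S:WIN1 and from 1790 to 2354 in the control, and the share of probes above background lay between 58.9% and 65.2%. The 2 lowest percentiles, 997 and 1269, were those of 35S:WIN1 replicates 1 and 2, so results are also given without these arrays where they change. The 35S:WIN1 arrays shared 1 slide and the control arrays the other slide, which means that an effect of the slide cannot be told apart from one of the genotype. WIN1 (AT1G15360) stood at 4.85 ± 0.83 (SD, n = 4) in 35S:WIN1 and at -8.21 ± 1.48 (SD, n = 4) in the control, where its probe exceeded background on 1 array. Among tissue markers, the leaf gene RBCS1A and the root gene PYK10 were above background on 8 arrays, and the seed genes OLEO1 and CRA1 on 0. Of 4 markers of green shoot tissue, 2 were lower in 35S:WIN1, LHCB2.1 at -2.03 (limma, adjusted p = 0.0274) and RCA at -0.43 (adjusted p = 0.0197). LHCB2.1 was dim, at 6.79 to 79.1 intensity units in 35S:WIN1, and exceeded background on 3 of these arrays. RBCS1A at 0.22 and CAB1 at 0.15 did not pass, and the part of shoot tissue in the falls below was not tested. The floral gene PI was also above background on 8 arrays, AP1 on 6 and AG on 2, with no difference between the groups that passed for PI or AP1 (limma, adjusted p = 0.814 and 0.176).

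Of the 10 HD-ZIP IV genes, 7 were lower in 35S:WIN1, 0 were higher and 3 did not pass (limma, Benjamini-Hochberg adjusted p below 0.05 over the 20441 genes tested). The 7 were GL2, HDG11, HDG12, HDG5, HDG8, HDG2 and HDG1, and without adjustment the counts were also 7 lower and 0 higher. Over all genes tested 20.2% were lower, 15.1% were higher and 35.3% passed in either direction. Without adjustment 5369 of the 20441 genes tested were lower and 4054 higher. At least 2-fold lower were 5 of the 10, against 7.47% of all genes, and the 4 values of each group did not overlap for 6 of the 10, against 35.4% of all genes in either direction and 20.1% in the lower direction. The 7 and the 5 both include HDG8, which exceeded background on 1 35S:WIN1 array and 3 control arrays. With values raised to each array's lowest signal above background HDG8 was 1.51-fold lower and did not pass. The median log2 difference of the 10 genes was -0.85, beside -0.04 for all genes tested. It was -0.53 over the 9 members above background on all arrays, -0.51 with normexp background correction and -2.49 on a spike-in scale that placed the median of all genes at -1.68. Without 35S:WIN1 replicates 1 and 2 the number lower was 3, namely GL2, HDG11 and HDG12, beside 11.6% of all genes. These are bulk samples, in which fewer cells of a type and less RNA per cell cannot be told apart.

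**Figure D1:**
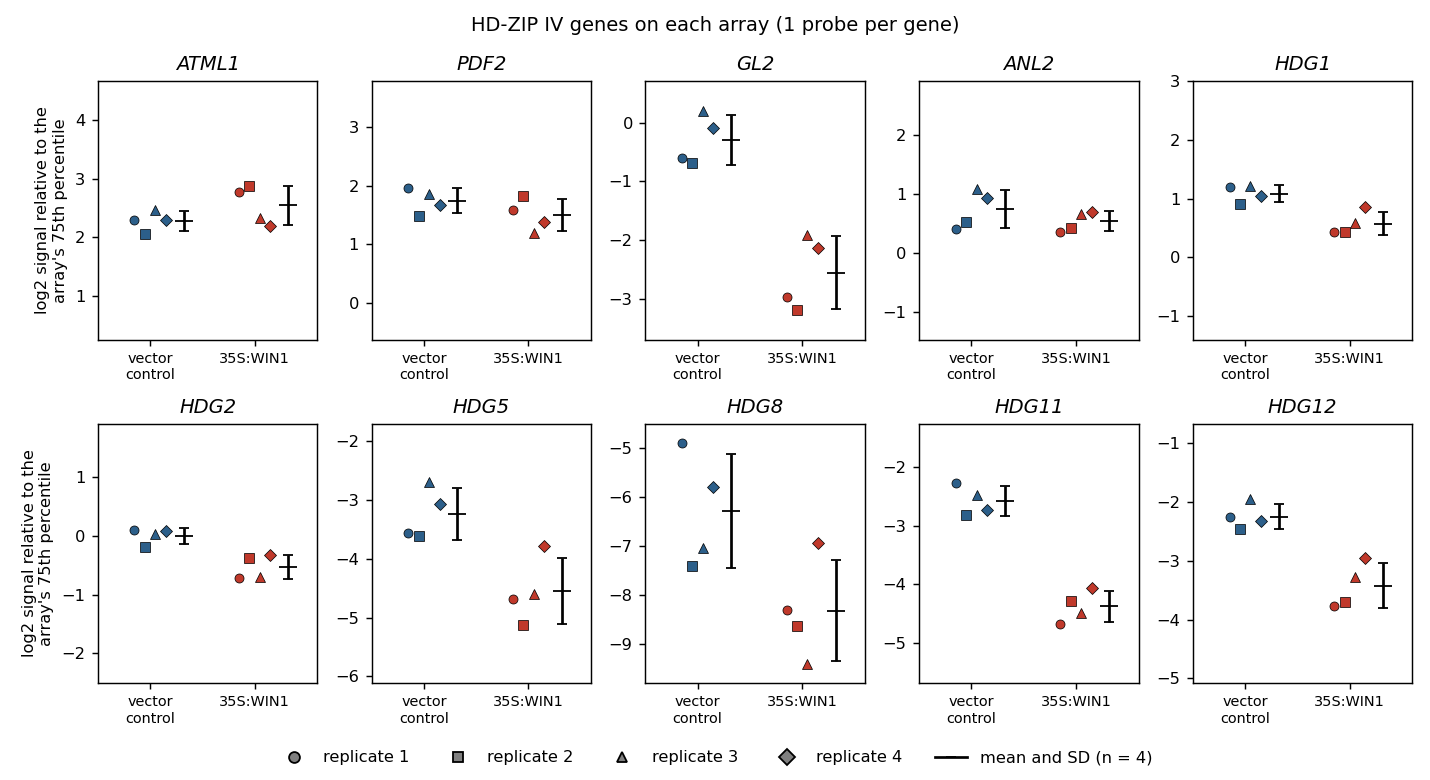
Each panel plots 1 HD-ZIP IV gene, with the log2 signal relative to the array's 75th percentile on the vertical axis and a symbol for each of 4 control (blue) and 4 35S:WIN1 (red) arrays, beside the mean and SD. Red and blue symbols separate in the panels of GL2, HDG1, HDG2, HDG5, HDG11 and HDG12 and overlap in those of ATML1, PDF2, ANL2 and HDG8; levels are not comparable between panels, and the axes of the panels start at different values.

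The factors of epidermal identity, ATML1 and PDF2, were measured well above background on all arrays and neither passed the test. ATML1 (AT4G21750) measured 2.77, 2.87, 2.34 and 2.19 on 35S:WIN1 replicates 1 to 4 and 2.29, 2.05, 2.47 and 2.30 on the control replicates. The 2 dimmest 35S:WIN1 arrays held the highest values of ATML1, and the other 2 lay within the control range. The log2 difference was 0.26 (SE 0.18, 95% interval -0.14 to 0.67, limma adjusted p = 0.280), and without the 2 dimmest arrays it was -0.01 (adjusted p = 0.955). ATML1 was the only member with a fitted difference above 0.

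PDF2 (AT4G04890), the closest relative of ATML1, measured 1.58, 1.83, 1.19 and 1.39 in 35S:WIN1 and 1.97, 1.48, 1.86 and 1.67 in the control. The groups overlapped, with 35S:WIN1 replicates 3 and 4 below all control arrays. Its log2 difference was -0.24 (SE 0.17, 95% interval -0.63 to 0.14, adjusted p = 0.289). For both genes the interval on this scale leaves out a 2-fold change in either direction.

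GL2 (AT1G79840), the regulator of trichomes and root hairs, had the largest fitted fall of the 10 genes. It measured -2.97, -3.19, -1.92 and -2.14 in 35S:WIN1 and -0.61, -0.69, 0.20 and -0.10 in the control, or 127 to 602 intensity units against 1174 to 2581. No 35S:WIN1 array reached the lowest control value, and replicates 1 and 2 were the lowest. The log2 difference was -2.26 (SE 0.33, adjusted p = 0.00184), a 4.78-fold lower signal, and 1.92% of all genes tested had a lower difference. Without the 2 dimmest arrays it was -1.73 (adjusted p = 0.0102).

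HDG11 and HDG12 are close relatives that together limit the branching of trichomes, and HDG11 is known for the drought tolerance its overexpression confers. HDG11 (AT1G73360) measured -4.67, -4.27, -4.49 and -4.07 in 35S:WIN1 and -2.28, -2.82, -2.47 and -2.74 in the control. The gap between the groups was wider than the range within either group, and the 2 dimmest arrays did not stand apart from the other 2. The log2 difference of -1.80 (SE 0.17, adjusted p = 2.88e-04), or 3.48-fold lower, had the smallest p of the 10 genes.

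HDG12 (AT1G17920) measured -3.76, -3.71, -3.27 and -2.95 in 35S:WIN1 and -2.25, -2.46, -1.94 and -2.33 in the control. All 35S:WIN1 arrays lay below all control arrays, by the narrowest margin on replicate 4. The log2 difference was -1.18 (SE 0.21, adjusted p = 0.00384), or 2.26-fold lower. Both probes were dim in 35S:WIN1, at 39.1 to 148 intensity units for HDG11 and 73.4 to 323 for HDG12. With normexp background correction the differences shrank to -0.78 for HDG11 and -0.74 for HDG12 and still passed (adjusted p = 0.00303 and 0.00927).

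HDG2 (AT1G05230), which promotes the development of stomata and trichomes, measured -0.71, -0.38, -0.69 and -0.32 in 35S:WIN1 and 0.09, -0.19, 0.02 and 0.08 in the control. The groups came within a small distance of each other at 35S:WIN1 replicate 4 and control replicate 2 without overlapping. The fitted difference was -0.53 on the log2 scale (SE 0.13, adjusted p = 0.0155), or 1.44-fold lower. It did not pass without the 2 dimmest arrays (-0.51, adjusted p = 0.0651) or on the deposited values, whose arrays were brought to no common scale (-0.93, adjusted p = 0.123).

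HDG5 (AT5G46880), another member expressed in the shoot epidermis, measured -4.68, -5.13, -4.61 and -3.79 in 35S:WIN1 and -3.57, -3.62, -2.68 and -3.06 in the control. Replicate 4 of 35S:WIN1 came close to control replicates 1 and 2, and the other 3 lay farther below. HDG5 thus differed by -1.32 on the log2 scale (SE 0.32, adjusted p = 0.0140), or 2.49-fold lower. It was -0.57 with normexp background correction (adjusted p = 0.0452), and without the 2 dimmest arrays it did not pass (-0.96, adjusted p = 0.0977).

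ANL2 and HDG1 form a further pair of relatives. ANL2 is named after the loss of anthocyanin beneath the epidermis in its mutant and also shapes the cell layers of the root, and HDG1 acts with the small regulator CFL1 on cuticle genes. ANL2 (AT4G00730) measured 0.36, 0.43, 0.67 and 0.70 in 35S:WIN1 and 0.41, 0.52, 1.09 and 0.94 in the control. The groups overlapped, and the log2 difference was -0.20 (SE 0.18, 95% interval -0.60 to 0.20, adjusted p = 0.402).

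HDG1 (AT3G61150) measured 0.42, 0.43, 0.58 and 0.86 in 35S:WIN1 and 1.19, 0.90, 1.21 and 1.04 in the control. Replicate 4 of 35S:WIN1 lay just under control replicate 2, so the separation was narrow. HDG1 differed by -0.51 on the log2 scale (SE 0.13, adjusted p = 0.0189), or 1.42-fold lower. The call was lost without 35S:WIN1 replicate 1 (adjusted p = 0.0532), control replicate 1 (0.0537) or control replicate 3 (0.0531), without both dimmest arrays (-0.36, adjusted p = 0.131) and on the deposited values (-0.91, adjusted p = 0.143).

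HDG8 (AT3G03260), a member best known for expression in the endosperm that depends on the parent of origin, was close to background. Its probe exceeded background on 1 of the 35S:WIN1 arrays and on 3 of the control arrays. Its values were -8.30, -8.63, -9.41 and -6.95 in 35S:WIN1 and -4.89, -7.41, -7.04 and -5.80 in the control, and the groups overlapped because 35S:WIN1 replicate 4 exceeded control replicates 2 and 3. The fitted log2 difference was -2.04 (SE 0.67, adjusted p = 0.0448), but with values raised to each array's lowest signal above background it was -0.60 (adjusted p = 0.403), a 1.51-fold lower signal. That lowest signal was -6.36 and -6.73 on 35S:WIN1 replicates 1 and 2, above that of every control array. The difference was 0.20 with normexp background correction (adjusted p = 0.558), the call was lost without any one of 35S:WIN1 replicates 1, 2 and 3 and control replicates 1, 3 and 4 (adjusted p = 0.0553 to 0.107), and the exact permutation test gave p = 0.0857. The fall of HDG8 thus rests on signals at the limit of detection.

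**Figure D2:**
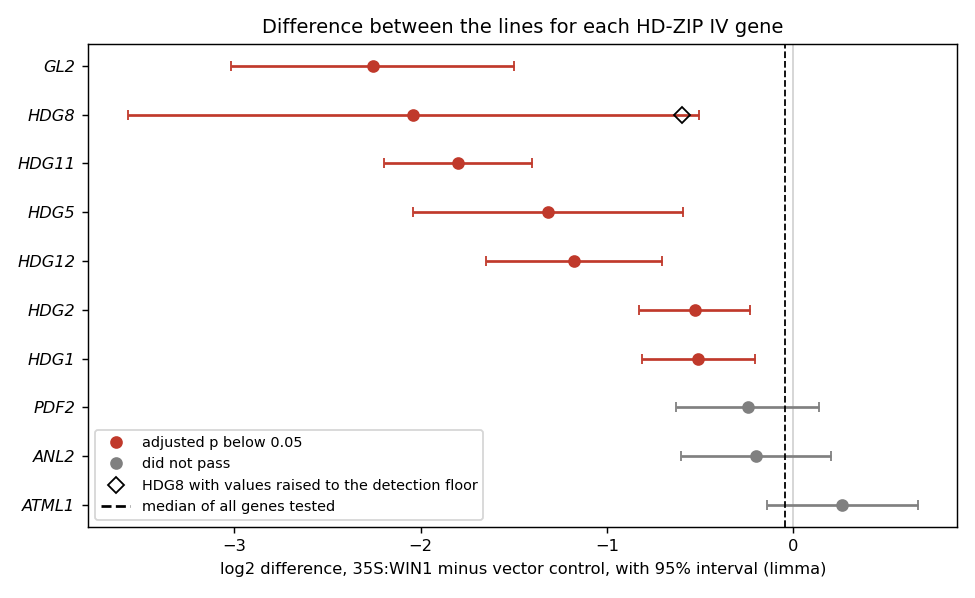
The fitted log2 difference, 35S:WIN1 minus vector control, is plotted on the horizontal axis for each HD-ZIP IV gene with its 95% interval; red marks an adjusted p below 0.05. GL2 at -2.26 and HDG11 at -1.80 lie farthest to the left with all arrays above background, the intervals of PDF2, ANL2 and ATML1 cross 0, and the open diamond shows HDG8 at -0.60 with values raised to the detection floor.

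The 6 genes with separated groups each gave p = 0.0286 in a two-sided exact permutation test over the 8 samples, which is the smallest p that 4 against 4 allows. Separated groups always give this value, so it adds nothing to the separation itself. The falls were not even over the 35S:WIN1 arrays. The median of the 10 genes' deviations from their control means was -1.08, -1.06, -0.86 and -0.45 on 35S:WIN1 replicates 1 to 4, while the 4 control arrays ran from -0.24 to 0.16. Replicate 4, with the smallest falls, also had the largest share of probes above background among the 35S:WIN1 arrays (65.1%) and replicate 1 the smallest (58.9%), and the part of signal strength in the result was not tested.

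Whether close relatives moved by different amounts was asked within arrays, as the difference between 2 probes of the same array, which no scaling of whole arrays can alter. Probe sequences were not used here, so signal shared between the probes of close relatives was not tested. ATML1 minus PDF2 was 1.18, 1.04, 1.14 and 0.80 in 35S:WIN1 and 0.33, 0.57, 0.62 and 0.63 in the control. All 35S:WIN1 arrays exceeded all control arrays, and the balance shifted toward ATML1 by 0.51 (limma 95% interval 0.18 to 0.83, two-sided exact permutation p = 0.0286, adjusted p = 0.0429 over 3 pairs). The intervals of the 3 pairs are from limma, which gave each pair the same SE of 0.16. They therefore do not reflect the spread of each pair by itself. The shift was 0.44 without the 2 dimmest arrays, where the exact test could not go below p = 0.0667 and limma on the same differences gave an adjusted p of 0.0635. The call was also lost with normexp background correction (0.48, exact permutation, adjusted p = 0.0857) and without any one of the 4 control arrays (exact permutation, adjusted p = 0.0571 to 0.0857). Separated groups stay separated when an array is left out, and with fewer arrays the exact p moves in coarser steps. The losses without a control array therefore do not show that the shift depended on that array. Over single arrays left out the shift ranged from 0.44 to 0.59.

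HDG11 minus HDG12 was -0.91, -0.57, -1.22 and -1.12 in 35S:WIN1 and -0.02, -0.36, -0.53 and -0.41 in the control. The groups did not overlap, though 35S:WIN1 replicate 2 came within a small distance of control replicate 3, and the balance shifted away from HDG11 by a log2 difference of -0.62 (limma 95% interval -0.95 to -0.30, exact permutation p = 0.0286, adjusted p = 0.0429). With normexp background correction, which adds an offset of 50 and so draws dim probes together, the shift was -0.04 (exact permutation, adjusted p = 0.771). The call was also lost without any one of the 4 control arrays (exact permutation, adjusted p = 0.0571 to 0.0857). Here too the groups stayed separated, so these losses do not show that the shift depended on a control array. Over single arrays left out it ranged from -0.75 to -0.52. ANL2 minus HDG1 averaged -0.04 ± 0.10 (SD, n = 4) in 35S:WIN1 and -0.35 ± 0.32 (SD, n = 4) in the control. The groups overlapped and the shift of 0.31 did not pass (limma 95% interval -0.02 to 0.64, exact permutation, adjusted p = 0.114), so the balance between HDG1, which passed as lower, and ANL2, which did not pass, was not shown to differ.

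**Figure D3:**
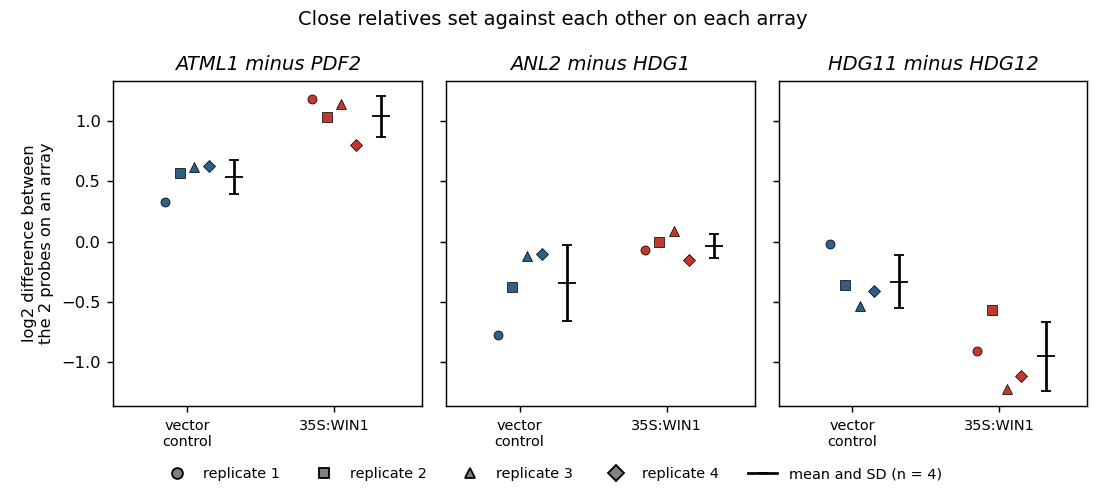
Each panel plots, for 1 pair of related genes, the log2 difference between their probes on each of the 8 arrays, with the mean and SD of each group. The 35S:WIN1 arrays lie above the control arrays for ATML1 minus PDF2, overlap them for ANL2 minus HDG1 and lie below them for HDG11 minus HDG12.

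The direction of the larger falls did not depend on which array quantile was used, but the scale as a whole did matter for the members near 0. The median of 8 spike-in RNAs, added to the samples as an outside standard, stood 2.78 to 4.39 above the 75th percentile on the 35S:WIN1 arrays and 1.56 to 2.78 above it on the control arrays, and scaling to their median moves every difference by -1.64 and the median of all genes to -1.68. On that scale ATML1, PDF2 and ANL2 stood at -1.38, -1.88 and -1.84 and passed as lower (limma, adjusted p = 0.0169, 0.00182 and 0.00223), with ATML1 0.31 above the median of all genes. Of all 20441 genes 17185 passed as lower there. A shared shift leaves the order of the 10 genes as it was, and which scale is nearer to the RNA content of the seedlings was not tested. On the deposited values ATML1 was at -0.14 and the median of all genes at -0.45.

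**Figure D4:**
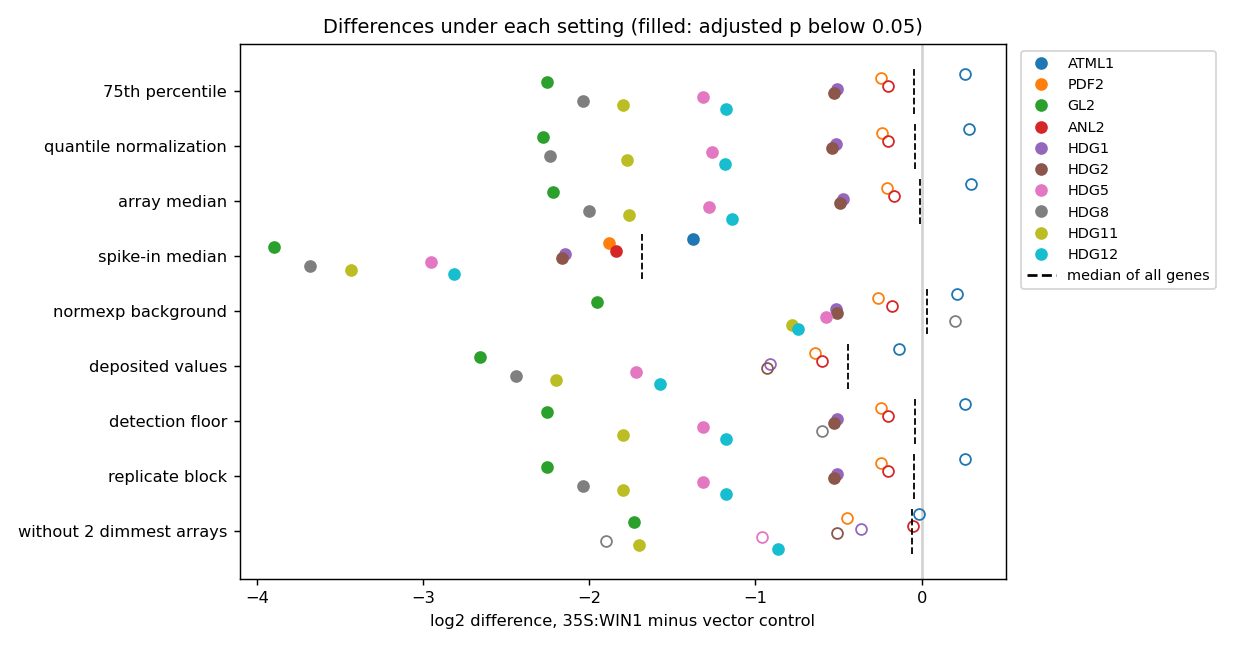
Log2 differences of the 10 genes are plotted on the horizontal axis for the reported scale and 8 other settings in rows, with filled symbols for an adjusted p below 0.05 and a dashed line at the median of all genes. GL2, HDG11 and HDG12 are filled in all 9 rows, and ATML1 crosses 0 on the spike-in scale, on the deposited values and without the 2 dimmest arrays.

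The remaining HD-ZIP IV genes on the array were HDG3, HDG4, FWA, HDG7, HDG9 and HDG10. HDG3, HDG4, FWA and HDG10 were not well above background on any array. HDG7 (AT5G52170) was above background on 8 arrays with a log2 difference of 0.62 (SE 0.38, adjusted p = 0.243), and HDG9 (AT5G17320) was above background on 4 with a difference of 0.52 (SE 0.21, adjusted p = 0.0798). Neither passed by limma, although HDG9 passed without adjustment, and HDG9 passed as higher with quantile normalization (0.59, adjusted p = 0.0480) and with the detection floor (0.50, adjusted p = 0.0358). That floor was -6.36 and -6.73 on 35S:WIN1 replicates 1 and 2, above the HDG9 values there of -6.97 and -7.19. HDG3, HDG4, FWA and HDG10 each stood at 0.36 with the floor, so this setting raised the differences of dim genes by itself. The sister class HD-ZIP III, whose members pattern the vasculature and the upper leaf side, had 0 of 5 genes called in either direction (limma, also 0 without adjustment), with differences from -0.03 for ATHB15 to 0.45 for ATHB8. PHB and REV stood at 0.09 and 0.05. Without 35S:WIN1 replicate 4 ATHB8 stood at 0.76 and passed as higher (adjusted p = 0.0210), and without the 2 dimmest arrays it stood at 0.06. On the spike-in scale 5 of the 5 genes passed as lower, as did 17185 of all 20441 genes.

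Among 12 tested genes of the epidermal layer that act with ATML1 and PDF2 or downstream of them, 1 was higher and 4 were lower, a share not far from the 35.3% of all genes that passed in either direction, and the median difference was -0.15. LGO, a cell cycle inhibitor gene through which ATML1 is known to set the fate of giant epidermal cells, fell by 1.75 on the log2 scale (SE 0.19, adjusted p = 5.26e-04). CER6, an elongase gene of wax synthesis, rose 1.76-fold (log2 0.82, SE 0.10, adjusted p = 7.89e-04), but stood at 0.42 on the deposited values (adjusted p = 0.481) and at -0.82 on the spike-in scale (adjusted p = 0.149). GSO1, a receptor kinase gene needed for a continuous embryonic cuticle, was 1.41-fold lower (log2 -0.50, adjusted p = 0.00748), a call that was lost on the deposited values (-0.90, adjusted p = 0.114). The other 2 lower genes, chosen for mention after their values were seen, were PDF1, a classical L1-layer marker with a log2 difference of -1.06, and CER5, a wax exporter gene at -0.40. CFL1, the partner of HDG1, stood at -0.55 (adjusted p = 0.106) and the lipid gene FDH at 0.11 (adjusted p = 0.366), so neither passed, and ALE1 was not above background on any array. Without the 2 dimmest arrays 1 gene of this list was higher and 2 were lower, and on the deposited values 0 were higher and 2 lower. The counts over all genes under both settings are given in the closing section.

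Of 12 regulators that act upstream of GL2 or beside it in hair patterning, 7 were lower and 0 higher (limma, also 7 and 0 without adjustment), with a median of -1.26. For comparison, 20.2% of all genes tested were lower and 15.1% higher. Without adjustment 5369 of all 20441 genes were lower and 4054 higher. MYB23, a trichome activator of the MYB class, fell by 2.47 on the log2 scale (SE 0.27, adjusted p = 5.26e-04). ETC2, a small inhibitor of trichome fate, was 4.27-fold lower (adjusted p = 0.00152), with 3 of the 35S:WIN1 arrays above background, and stood at -0.62 on the log2 scale with normexp background correction (adjusted p = 0.0329). TTG2, a WRKY factor gene, stood at -0.95 (SE 0.14, adjusted p = 0.00188), which did not pass with normexp background correction (-0.42, adjusted p = 0.0683). GL1, the MYB gene that starts trichome formation, is named because of its value, a difference of -5.02 with 2 of the 35S:WIN1 arrays above background, or 14.7-fold lower with the detection floor. TRY, ETC1 and ETC3, which like ETC2 encode small MYB inhibitors, were the remaining lower genes and were also picked by their values, at -1.57, -1.86 and -1.78. TRY exceeded background on 2 of the 35S:WIN1 arrays and stood at -1.39 with the detection floor, and ETC1 exceeded background on 3. The groups of ETC3 overlapped (limma, adjusted p = 0.0379). The regulators of root patterning WER and CPC, with the shared cofactors GL3, EGL3 and TTG1, did not pass, with differences from -0.39 to -0.08. With normexp background correction 3 of the 12 genes passed as lower, beside 3138 of all 20441 genes. Without the 2 dimmest arrays 5 of the 12 did, beside 11.6% of all genes.

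Root hair genes, which GL2 is known to repress in the non-hair cells of the root, went partly the other way. Of 7 tested, 4 were higher and 1 lower, with a median of 0.82, and without adjustment 4 were higher and 2 lower. With adjustment the shares over all genes tested were 15.1% higher and 20.2% lower. Without it 4054 of all 20441 genes were higher and 5369 lower. RSL1, the gene added without adjustment, stood at -1.18 (limma, adjusted p = 0.0568) and exceeded background on 1 of the 35S:WIN1 arrays. LRL1, a bHLH gene of root hair growth, rose by 1.61 on the log2 scale (SE 0.22, adjusted p = 0.00131) and its relative LRL2 by 0.82 (SE 0.14, adjusted p = 0.00346). RHD6 and RSL4, named after their values were seen, rose by 1.09 and 1.05, and RHD6 only narrowly passed (adjusted p = 0.0474). RSL2 was 4.61-fold lower (log2 SE 0.42, adjusted p = 0.00570), so genes of one pathway moved in both directions. On the spike-in scale 0 of these genes were higher and 3 were lower, beside 402 higher and 17185 lower of all 20441 genes. Without the 2 dimmest arrays 2 were higher and 1 lower, beside 11.6% of all genes lower. On the deposited values 1 was higher and 2 were lower, and LRL2 at 0.42 did not pass (adjusted p = 0.489). The counts over all genes on the deposited values are given in the closing section. With normexp background correction RSL2 stood at -1.0 (adjusted p = 0.00785). Of 5 root markers, all above background on 8 arrays, PYK10 and EXPA7 passed as higher, by 0.79 and 0.97, and 0 passed as lower. The other root markers, TIP2-3 at -1.96 (adjusted p = 0.0573), RHD2 at -0.55 and COBL9 at 0.07, did not pass, and the part of root tissue in these values was not tested.

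All 10 stomatal lineage genes tested were lower in 35S:WIN1 and 0 higher (limma, also 10 and 0 without adjustment), with a median of -2.25 and no overlap between groups for any of the 10. Among all genes tested 20.2% passed as lower, and 20.1% were lower without overlap. Without adjustment 5369 of all 20441 genes were lower. TMM, a receptor-like protein gene that spaces stomata, was 4.62-fold lower (log2 SE 0.32, adjusted p = 0.00178). EPF2, a secreted peptide gene that limits entry into the lineage, stood at -3.44 on the log2 scale (SE 0.52) with its probe below background on 1 array of 35S:WIN1, and POLAR, a polarity gene of asymmetric division, at -3.19 (SE 0.54). With normexp background correction these differences were -1.90 for EPF2 and -2.02 for POLAR. The probes of EPF1 and BASL also exceeded background on only 3 of the 35S:WIN1 arrays. Without the 2 dimmest arrays 7 of the 10 passed, while 11.6% of all genes passed as lower. The fall of HDG2, -0.53, was smaller than that of 9 of these 10 genes, SCRM2 at -0.41 being the exception, and the difference was not tested.

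**Figure D5:**
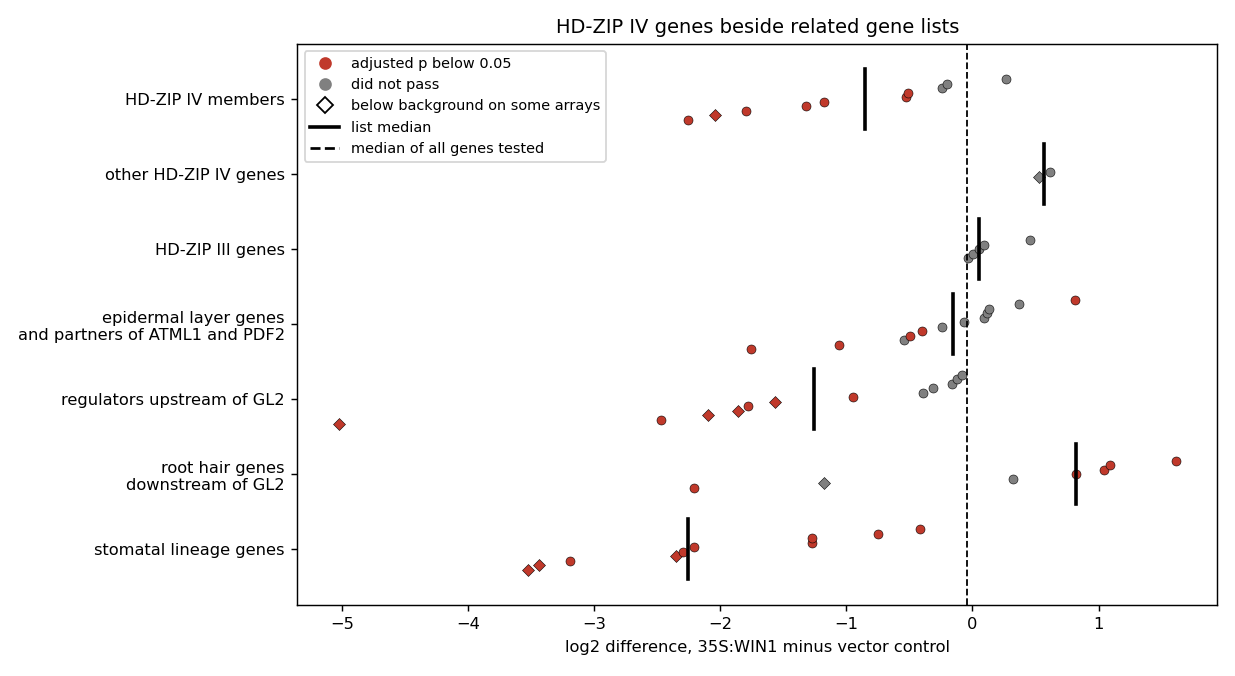
Each symbol is 1 tested gene, placed by its log2 difference (35S:WIN1 minus vector control) on the horizontal axis and by its gene list in rows; red marks an adjusted p below 0.05, diamonds mark genes below background on some arrays, and vertical bars mark list medians. The HD-ZIP IV median of -0.85 lies between those of the GL2 regulators at -1.26 and of the epidermal layer genes at -0.15, and 4 of the 5 HD-ZIP III genes lie near the median of all genes, with ATHB8 higher at 0.45.

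For the 9 HD-ZIP IV genes above background on all arrays, the genes with the most similar values over the 8 arrays were looked up among 20260 others, as a description. The 8 points include both groups, so for members that differ between the lines the likeness mostly repeats that difference. GL2 was most like AT1G05650, TTG2 and PARC6 (Pearson r = 0.991, 0.990 and 0.989), and HDG11 most like emb1692, MYB16 and AT1G78010 (r = 0.995, 0.995 and 0.993). HDG12 was most like AT5G27730, TCP17 and BAT1 (r = 0.997 each). HDG1 had AT1G55550, TRZ4 and FtsHi1 (r = 0.994 to 0.995), HDG2 had TK1b, AT1G77550 and BGLU42 (r = 0.983 to 0.993), and HDG5 had AT3G61320, BEL1 and AT3G02060 (r = 0.986 to 0.988). ATML1 was most like AT3G19250, CER1 and AT2G21300 (r = 0.969 to 0.987), PDF2 most like THO7, AT3G21310 and EMB2729 (r = 0.968 to 0.970) and ANL2 most like AT1G72480, AT1G26500 and AT1G21590 (r = 0.965 to 0.969), none of which passed as changed.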

How the data were processed

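Total RNA (1 µg per sample) was labelled with Cy3 and hybridised to 8 Agilent arrays, per the labels' protocols, and spots were quantified, per the submitters' processing notes, with version 9.1.3.1 of Agilent's Feature Extraction. The processed signal is, per the file headers, a linear intensity after detrending and background subtraction within the array, and the median spot and local background signals are raw intensities. The authors' deposited table of the series holds the processed intensity divided by 1 constant per slide, 1341 or 1312, within 0.0137%.

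Processed signals were taken as log2 after division by the array's 75th percentile over non-control spots. Outlier spots were left out and no spot was saturated. A gene was the brightest probe of its locus, kept where at least 4 arrays showed it well above background. This gave 20442 genes, of which 20441 had values in both groups. Groups and replicate numbers came from the titles. Differences were tested with limma 3.58.1 in R 4.3.3 (lmFit and eBayes, two-sided, Benjamini-Hochberg over all genes, threshold 0.05). Fitted differences of genes below background on some arrays were also computed with values raised to each array's lowest signal above background. This floor ran from -7.54 to -6.36 in 35S:WIN1 and from -7.65 to -7.12 in the control, so it can lift differences.

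The members and gene lists were chosen with earlier results of these data known. Genes named are all members, WIN1, up to 3 genes of each list with the smallest p and, for each member above background on all arrays, the 3 genes with the highest Pearson r over arrays. Every other gene named was chosen after its values were seen. The design named the mean spot signal for normexp, but the median spot signal was used, since these files carry no mean spot signal. The fit was tested on simulated data made from 20270 of these genes, for the comparison of 35S:WIN1 with the control. It found 70% of the changes of 2-fold and 14% of those of 1.5-fold put in, and 7.59% of its calls were false. The simulation changed 50 genes at each of 1.5-fold, 2-fold, 4-fold and 8-fold, with independent noise and no slide effect. In the data 35.3% of genes passed, so these rates need not carry over. The same replicate number did not pair samples, with correlations of -0.04, 0.06, 0.14 and 0.04 for numbers 1 to 4. The number of arrays limits the precision.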

Additional observations from a re-analysis of the deposited data

How the results depend on the processing

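GL2, HDG11 and HDG12 stayed lower and below the threshold under all 21 other settings of the fit, and WIN1 stayed higher under the 20 that kept it. The median of the 10 HD-ZIP IV genes was -2.49 on the spike-in scale, -1.25 on the deposited values, -0.51 with normexp correction, -0.53 over the 9 members above background on all arrays and -0.56 with values raised to the detection floor, a setting chosen after seeing the data. Without the 2 dimmest arrays 3 members passed as lower, and leaving out single arrays gave 5 to 7. Counts over all genes, higher and lower, were 402 and 17185 on the spike-in scale, 905 and 2088 on the deposited values and 1951 and 2367 without the 2 dimmest arrays. Over the related lists 5 genes were higher and 22 lower, and these counts became 0 and 41 on the spike-in scale, with 1 higher on the deposited values, 3 with the replicate block and 3 without the 2 dimmest arrays. With the replicate number as a block, GL2 kept -2.26 (adjusted p = 0.00130), 7 members passed as lower and no member's call changed, while 2 of 8 samples correlated best with their own number. The shift of ATML1 minus PDF2 was 0.48 with normexp correction (adjusted p = 0.0857) and 0.44 without the 2 dimmest arrays, and ranged from 0.44 to 0.59 over single arrays left out. That of HDG11 minus HDG12 was -0.039 with normexp correction and -0.84 without the 2 dimmest arrays, where limma, a test added after seeing the data, gave an adjusted p of 0.00279, and it ranged from -0.75 to -0.52. Directions reversed on the spike-in scale for ATML1 (-1.38), HDG9 (-1.11), HDG7 (-1.02), ATHB8 (-1.18), PHB (-1.55), REV (-1.59), CER6 (-0.82), LRL1 (-0.026) and LRL2 (-0.82), on the deposited values for ATML1 (-0.14), PHB (-0.31) and REV (-0.35), without the 2 dimmest arrays for ATML1 (-0.014), PHB (-0.053) and REV (-0.11), and with normexp correction for HDG8 (0.20). Leaving out single arrays moved PHB between -0.0041 and 0.20 and REV between -0.0016 and 0.15. Settings that left out arrays or members also rested on fewer of them. Apart from the shared shift of the spike-in scale, the causes of these changes were not tested.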
